A study of Mus musculus with 6 samples.

Results

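The genes described here are 8 members of the systems that hold blood clotting in check on the vessel wall and that dissolve clots, *Thbd*, *Procr*, *F3*, *Tfpi*, *Tfpi2*, *Plat*, *Plau* and *Plaur*. They were taken by gene symbol from a table of read counts for 24421 genes, and all 8 were found and had enough reads to be tested. The RNA came from primary endothelial cell cultures of the stria vascularis, the vascularised epithelium of the cochlear lateral wall, taken at postnatal day 10 to 12. By the methods of the study, the tissue dissected for culture also held the spiral ligament. There were 3 cultures of *Nhe6*-knockout mice, which carry a targeted disruption of *Nhe6* (an endosomal sodium and proton exchanger), and 3 of wildtype mice. None was treated. The labels give C57BL/6N as the background of both genotypes, whereas the methods of the study describe backcrossing to C57BL/6J. Each culture pooled cells of at least 6 mice, was purified by cell sorting and gave 1 library. The cells had thus grown outside the vessel, and a culture is a pool of animals.

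Thrombomodulin, the product of *Thbd*, is a membrane receptor of endothelial cells that binds thrombin and turns it from a clotting enzyme into an activator of protein C, an anticoagulant protease. The endothelial protein C receptor, the product of *Procr*, presents protein C to this complex. Tissue factor (*F3*) starts clotting by binding factor VII, and tissue factor pathway inhibitor (*Tfpi*) blocks that step. On the fibrinolytic side, the plasminogen activators encoded by *Plat* and *Plau* make plasmin, and *Plaur* encodes the receptor that holds the *Plau* product at the cell surface.

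Reads counted on genes numbered from 25587097 to 29126232 per library. Wildtype replicate 2 stood apart from the other libraries, at 106 on the first principal component against -28.5 to -6.52. *Nhe6*-knockout replicates 1 and 2 were closer to each other than any other pair of the same genotype, with a chi-square per gene of 4.89 against 89.6 to 397. They differed by more than sampling noise, which repeat libraries of 1 culture can also do. They are counted as separate cultures as the labels number them, their independence was not tested, and with both summed to 1 library the adjusted p of *Thbd* was 0.652 in edgeR. Of 14 endothelial markers, 9 were tested and 1 passed, *Cdh5*, which encodes VE-cadherin (log2 fold change -4.15, adjusted p = 0.0133 from edgeR). Of the 14, 7 had a mean of at least 100 normalised counts, among them *Emcn* at 12376, *Eng* at 3760 and *Cdh5* at 1968, while *Pecam1* and *Tie1* had at most 7.82 and 2.14 and *Cldn5* had 0 reads in each library. All 8 fibroblast markers and 5 of 9 mural markers also had a mean of at least 100. In bulk RNA of this kind, fewer cells of a type and less RNA per cell cannot be told apart.

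*Thbd* was the only 1 of the 8 genes without overlap between the genotypes, and it was lower in *Nhe6*-knockout cells. Its normalised read count (counts scaled to the mean library, given here and throughout in the order of replicates 1, 2 and 3) was 953, 954 and 346 for the knockout and 6382, 21105 and 1655 for the wildtype cultures. The highest knockout culture was thus below the lowest wildtype culture, which had 1.74 times as many counts. The wildtype cultures also differed from each other by 12.8-fold and the knockout cultures by 2.76-fold, so the spread within the wildtype group was about as wide as the 12.9-fold difference between the group means. *Thbd* consists of a single exon at chr2:148404466-148408188 on the minus strand (GRCm38), so no choice of exons enters its count.

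The log2 fold change of *Thbd* (*Nhe6*-knockout over wildtype) was -3.69 with a standard error (SE) of 0.97. Its unadjusted p was 0.00768, and its adjusted p over all 13479 genes tested was 0.210 in edgeR's quasi-likelihood test, which did not pass the threshold of 0.05. It was the member with the smallest p, at place 491 among all genes, and it stood at place 31 from the lowest fold change. Without wildtype replicate 2, the log2 fold change was -2.42 and the adjusted p 0.114. The mean of wildtype replicates 1 and 3, 4019 normalised counts, was still 5.35 times the knockout mean of 751 ± 351 (SD, n = 3 cultures). With the Wald test of DESeq2, the adjusted p of *Thbd* was 1.41e-04. Of the 8 genes, 0 passed in edgeR's test and 1, *Thbd*, had an unadjusted p under 0.05. DESeq2 called 1 of the 8, limma-voom 0 (and 10 among all genes), and edgeR without wildtype replicate 2 called 0. Among all genes tested, 0.0668% passed in edgeR, 11.8% had an unadjusted p under 0.05, 4.69% passed in DESeq2, and 2.88% passed in edgeR without wildtype replicate 2. A lower count in each knockout culture than in each wildtype culture, seen for 1 of the 8 genes, was found for 9.57% of all genes tested. No overlap in either direction, also seen for 1 of the 8, was found for 19.9% of all genes tested. The study had already named *Thbd* among the prominent differences of these data. Its part in these shares is therefore not independent of how the genes were chosen.

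**Figure D1:**
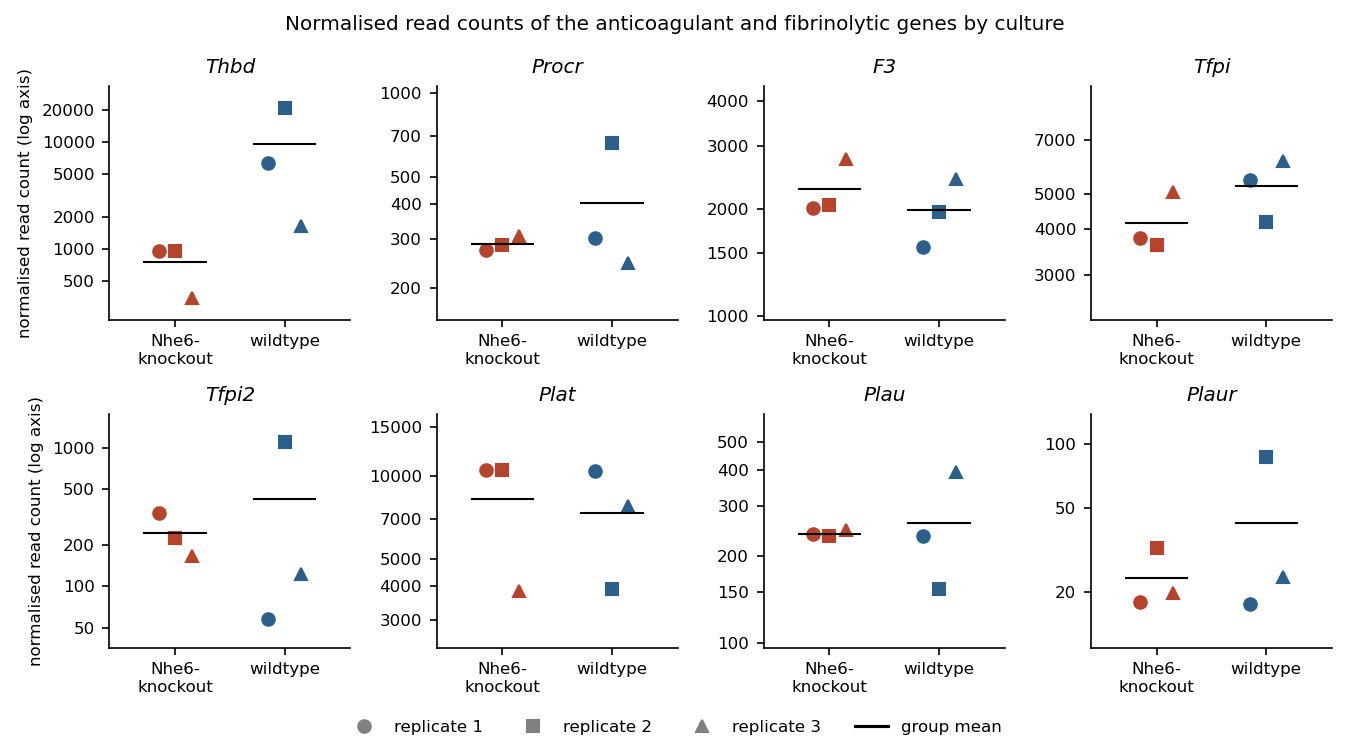
Normalised read counts (log axis) of the 8 genes in the 3 *Nhe6*-knockout and 3 wildtype cultures, with a point for each culture and a line at each group mean. *Thbd* is the panel in which the genotypes do not overlap, and wildtype replicate 2 is the highest culture for *Thbd*, *Procr*, *Tfpi2* and *Plaur*.

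The other 7 genes overlapped between the genotypes, and several of them depended on wildtype replicate 2. That culture had the highest count of the 6 for 4 of the 8 genes, *Thbd*, *Procr*, *Tfpi2* and *Plaur*, and the lowest for *Plau*. The share of all genes tested with that culture highest or lowest was not computed, so this cannot be read as a trait of the 8 genes. *Procr* had 274, 285 and 306 normalised counts in the knockout cultures and 302, 661 and 246 in the wildtype cultures. Apart from wildtype replicate 2, its counts lay within a narrow band in both genotypes. The log2 fold change of *Procr* was -0.48 (SE 0.38, adjusted p = 0.687 from edgeR) with all cultures and 0.068 without wildtype replicate 2. The knockout cultures of *Procr* thus lay near wildtype replicates 1 and 3, whereas those of *Thbd* lay below them. The proteins of both genes act in the activation of protein C.

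*Tfpi2*, which encodes a secreted protease inhibitor of the same Kunitz family as *Tfpi*, was the most variable of the 8 genes among wildtype cultures. It had 336, 223 and 167 normalised counts in the knockout cultures and 57.7, 1101 and 122 in the wildtype cultures. Each knockout culture was above wildtype replicates 1 and 3 and below wildtype replicate 2. The log2 fold change was -0.82 (SE 1.04, adjusted p = 0.815) with all cultures and turned to 1.42 without wildtype replicate 2 (unadjusted p = 0.0189, adjusted p = 0.160 from edgeR). *Plaur* had few reads, with 18.1, 32.5 and 19.9 normalised counts in the knockout and 17.6, 86.7 and 23.5 in the wildtype cultures. Apart from wildtype replicate 2, the genotypes of *Plaur* were interleaved. Its log2 fold change was -0.85 (SE 0.69, adjusted p = 0.693), and 0.19 without wildtype replicate 2.

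**Figure D2:**
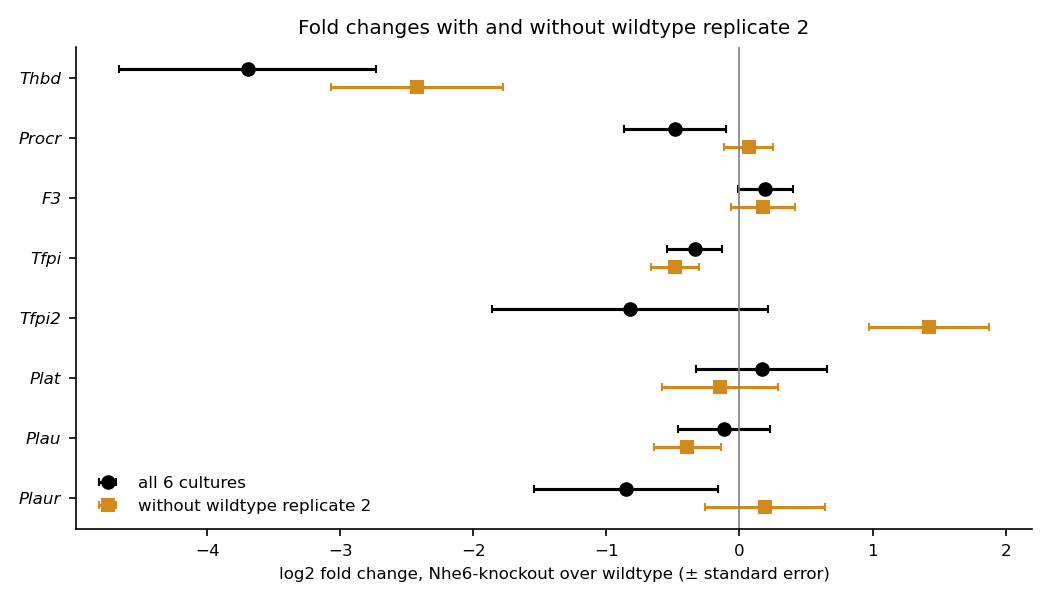
Log2 fold changes (*Nhe6*-knockout over wildtype) of the 8 genes from edgeR with their standard errors, for all 6 cultures (circles) and without wildtype replicate 2 (squares). *Thbd* lies below 0 in both fits, at -3.69 and -2.42, while *Procr*, *Tfpi2*, *Plat* and *Plaur* change sign.

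Tissue factor and its inhibitor were measured at high counts. *F3* had 2012, 2044 and 2760 normalised counts in the knockout and 1565, 1958 and 2430 in the wildtype cultures. The groups overlapped only through the highest wildtype culture, and the other wildtype cultures lay below each knockout culture. The log2 fold change of *F3* was 0.20 (SE 0.21, adjusted p = 0.781 from edgeR), and it lay between 0.02 and 0.36 in 12 alternative fits. *Tfpi* had 3793, 3635 and 5070 normalised counts in the knockout and 5464, 4187 and 6144 in the wildtype cultures. Its log2 fold change was -0.34 (SE 0.20, adjusted p = 0.583) and stayed below 0 in the same 12 alternatives, between -0.51 and -0.22, without an adjusted p under 0.05. The wildtype spread of *F3* and *Tfpi* on the log2 scale was at percentiles 46.1 and 40.2 of all genes tested. For *Thbd* and *Tfpi2* it was at percentiles 95.7 and 97.2. Among knockout cultures the spread of *F3* and *Tfpi* was at percentiles 69.8 and 70.4.

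Promoters are shown for *Procr*, *Tfpi2* and *Plaur*, which were highest in wildtype replicate 2 together, and for *F3*, which was not. The RefSeq table held promoters of 5 of the 8 genes (*Procr*, *F3*, *Tfpi*, *Tfpi2* and *Plaur*), each from 250 bases before to 50 bases after the start of transcription. These were 8 promoters, 3 of them of *Tfpi2* and 2 of *Tfpi*. Only those with a match to the motif marked below are shown. Both of *Tfpi*, which was also not highest in wildtype replicate 2, and the other 2 of *Tfpi2* had none. Capitals mark each match to TGANTCA, the type of motif bound by AP-1 factors, searched on both strands. In *F3* the match TGAGTCA overlaps a match to CACCC. The windows are chr2:155750967-155751266 (plus strand) for *Procr*, chr6:3968326-3968625 (minus strand) for *Tfpi2*, chr7:24462233-24462532 (plus strand) for *Plaur* and chr3:121723287-121723586 (plus strand) for *F3*, on GRCm38.p6.
Procr: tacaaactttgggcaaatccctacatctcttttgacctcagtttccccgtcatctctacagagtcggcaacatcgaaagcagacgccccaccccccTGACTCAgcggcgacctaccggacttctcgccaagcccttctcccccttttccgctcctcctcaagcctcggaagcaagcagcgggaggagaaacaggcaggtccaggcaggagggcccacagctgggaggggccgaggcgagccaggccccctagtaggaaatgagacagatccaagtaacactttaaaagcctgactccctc
Tfpi2: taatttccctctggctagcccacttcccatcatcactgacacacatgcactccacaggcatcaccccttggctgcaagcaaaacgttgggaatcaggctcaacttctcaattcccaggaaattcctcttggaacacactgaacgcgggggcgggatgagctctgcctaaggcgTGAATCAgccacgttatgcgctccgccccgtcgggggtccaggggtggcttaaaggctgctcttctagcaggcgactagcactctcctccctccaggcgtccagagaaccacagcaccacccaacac
Plaur: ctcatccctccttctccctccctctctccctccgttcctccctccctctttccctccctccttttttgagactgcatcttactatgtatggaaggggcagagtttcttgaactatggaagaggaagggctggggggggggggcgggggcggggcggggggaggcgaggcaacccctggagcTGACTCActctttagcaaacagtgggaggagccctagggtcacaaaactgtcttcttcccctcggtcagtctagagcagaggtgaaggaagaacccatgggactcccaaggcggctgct
F3: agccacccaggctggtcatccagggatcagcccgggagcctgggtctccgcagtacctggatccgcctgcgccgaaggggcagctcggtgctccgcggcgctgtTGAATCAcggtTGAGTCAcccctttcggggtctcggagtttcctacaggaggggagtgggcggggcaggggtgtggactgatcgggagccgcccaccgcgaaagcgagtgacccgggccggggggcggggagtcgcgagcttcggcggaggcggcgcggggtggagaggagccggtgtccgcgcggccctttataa

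A match to TGANTCA was found in 4 of the 8 promoters, 1 each of *Procr*, *F3*, *Tfpi2* and *Plaur*, and in 7.79% of 32544 promoters of this length in the table. The other 2 promoters of *Tfpi2*, whose windows overlap each other, and both of *Tfpi* had none. The matches occurred in genes that were highest in wildtype replicate 2 and in *F3*, whose count in that culture was between those of the other wildtype cultures. *Thbd*, also highest in that culture, had no promoter in the table. A CACCC match, the type bound by Krüppel-like factors, was found in 6 of the 8 promoters and in 57.7% of all promoters. The GC box GGGCGG was found in 5 of the 8 and in 35.9% of all, and TATAAA in 2 of the 8 and in 13.6% of all. These are matches of letters, binding was not measured, and a part of such factors in the counts was not tested.

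*Plat*, the tissue plasminogen activator gene, had the most counts of the plasminogen activators, and it varied among the cultures of both genotypes. The knockout cultures had 10504, 10494 and 3828 normalised counts of *Plat*, and the wildtype cultures 10459, 3892 and 7768. A low culture was thus found in each genotype. The log2 fold change of *Plat* was 0.17 (SE 0.49, adjusted p = 0.931 from edgeR). The summed level of the 8 macrophage markers, as reads relative to library size (CPM), was 49.1 CPM in *Nhe6*-knockout replicate 3 and 5.24 in wildtype replicate 2, against 64.3 to 119 in the other 4 cultures, with all 8 tested, and *Adgre1*, *Ptprc* and *Itgam* at 0 in wildtype replicate 2. The same 2 cultures were also lowest for the summed epithelial (2.06 and 0.112), melanocyte (14.2 and 10.4, 2 of 6 tested) and endothelial markers (613 and 580). Single markers did not all follow these sums. In wildtype replicate 2, 7 of the 14 endothelial markers were the highest of the 6 cultures, among them *Cdh5*, and 4 were the lowest, among them *Emcn*. In *Nhe6*-knockout replicate 3, *Emcn* (9900 normalised counts) and *Lyz2* (817) were second lowest of the 6 cultures, but *Eng* (4632) and *Cd68* (218) were not. The part of these cells in the level of *Plat* was not tested.

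*Plau*, the urokinase gene, had 239, 235 and 246 normalised counts in the knockout cultures, a range of 1.05-fold, and 235, 154 and 393 in the wildtype cultures. The wildtype cultures lay on both sides of the knockout cultures. Its log2 fold change was -0.12 (SE 0.35, adjusted p = 0.931 from edgeR). The spread of *Plau* among knockout cultures was at percentile 5.75 of all genes tested, and that of *Plat* was at percentile 95.7.

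Per length (RPKM, the read count divided by exon length and by library size), the 8 genes covered a wide range of levels. In knockout cultures the order of mean levels was *Plat* (48.1 ± 22.4, SD, n = 3), *F3* (32.6 ± 6.07), *Tfpi* (27.7 ± 5.23), *Thbd* (7.32 ± 3.42), *Procr* (5.15 ± 0.287), *Tfpi2* (5.02 ± 1.79), *Plau* (3.68 ± 0.0855) and *Plaur* (0.326 ± 0.109). Only the steps from *Tfpi* to *Thbd* and from *Plau* to *Plaur* separated neighbours whose cultures did not overlap. In wildtype cultures *Thbd* came at the top, at 94.7 ± 98.9, followed by *Plat* at 42.9 ± 19.2, *Tfpi* at 35.0 ± 6.60 and *F3* at 28.5 ± 6.22. They were followed by *Tfpi2* at 8.87 ± 12.1, *Procr* at 7.20 ± 4.03, *Plau* at 3.99 ± 1.86 and *Plaur* at 0.591 ± 0.531, and among these 8 only *Plau* and *Plaur* were neighbours without overlap. Within single cultures, *Thbd* was the highest of the 8 per length in wildtype replicates 1 and 2, in place 4 in wildtype replicate 3 and *Nhe6*-knockout replicates 1 and 2, and in place 7 in *Nhe6*-knockout replicate 3.

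Ratios of 2 genes within a library do not depend on how libraries are scaled. The log2 ratio of *Thbd* to *F3*, an anticoagulant receptor against the starter of clotting, was -1.08, -1.10 and -3.00 in the knockout and 2.03, 3.43 and -0.55 in the wildtype cultures. *Thbd* counts were thus below *F3* counts in each knockout culture and in 1 wildtype culture, replicate 3. The difference between the genotypes was -3.36 (SE 1.33), without overlap (p = 0.1 in a two-sided exact permutation test, where 3 against 3 cultures can give no smaller p, and 0.2 adjusted over 6 ratios). The log2 ratio of *Procr* to *Thbd* was -1.80, -1.74 and -0.18 in the knockout and -4.40, -4.99 and -2.75 in the wildtype cultures, a difference of 2.81 (SE 0.86) with the same p-values in the exact test. Both ratios contain *Thbd*, whose own counts already separated the genotypes, so they are not further evidence beside it.

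The log2 ratio of *Tfpi* to *F3*, an inhibitor and its target, was 0.91, 0.83 and 0.88 in the knockout cultures and 1.80, 1.10 and 1.34 in the wildtype cultures. Each knockout culture was below each wildtype culture, although neither gene separated the genotypes by its own counts. The difference was -0.54 (SE 0.21, p = 0.1 in the exact permutation test and 0.2 adjusted over 6 ratios). It ranged from -0.70 to -0.34 as single cultures were removed. The share of other gene pairs whose ratios do not overlap was not computed. The log2 ratio of *Plau* to *Plaur*, a plasminogen activator and its receptor, was 3.69, 2.84 and 3.60 in the knockout and 3.70, 0.82 and 4.03 in the wildtype cultures, which overlapped. The difference was 0.52 (SE 1.05), with p = 1 in the exact permutation test.

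**Figure D3:**
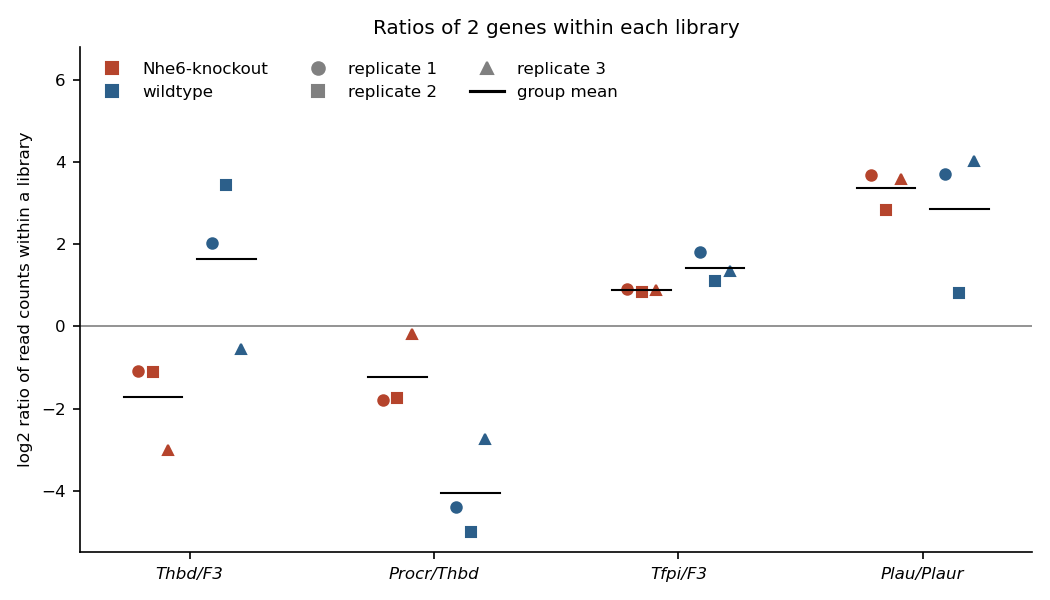
Log2 ratios of the read counts of 2 genes within each library, with a point for each culture and a line at each group mean. *Thbd*/*F3* and *Procr*/*Thbd*, which both contain *Thbd*, and *Tfpi*/*F3* do not overlap between the genotypes, and *Plau*/*Plaur* does.

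Beside the 8 genes, 58 others were listed, 48 of coagulation and fibrinolysis and 10 only as relatives, regulators or vascular partners of *Thbd*. Of the 48, 24 could be tested. Among these 24, 0 passed in edgeR's test and 0 in DESeq2, and 3 had an unadjusted p under 0.05 in edgeR (12.5%, against 11.8% of all genes tested). The genotypes did not overlap for 6 of the 24 (25.0%, against 19.9% of all genes tested in either direction). Without wildtype replicate 2, edgeR called 2 of the 24, *Serpine2* and *Gas6* (8.33%, against 2.88% of all genes). Of the 10 others, 9 were tested, 0 passed in edgeR and 2 had an unadjusted p under 0.05 (22.2%, against 11.8%). DESeq2 called the same 2, *Clec14a* and *Ptgis* (22.2%, against 4.69%), and edgeR without wildtype replicate 2 called 1, *Ptgis* (11.1%, against 2.88%). The study had already named *Ptgis* among the most lowered genes of these data, so these shares are not independent of how the genes were listed.

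Of the 58 genes, 10 were listed at 0 reads in each library. They were *Cpb2*, *F13b*, *F2rl2*, *F9*, *Fga*, *Fgb*, *Fgg*, *Plg*, *Serpina5* and *Eno1*, named here after their values were seen. *Eno1* encodes a glycolytic enzyme that every cell uses, so a 0 in this table cannot be read as a limit on expression.

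In the list of protein C and thrombin receptors, 6 of 11 genes were tested, and the lowest and highest fold changes were those of *Thbd* and *F2r*. *F2r*, the main thrombin receptor, had 4573, 4531 and 5831 normalised counts in the knockout and 3397, 2584 and 3772 in the wildtype cultures, each knockout culture being above each wildtype culture. Its log2 fold change was 0.61 (SE 0.19, adjusted p = 0.277 from edgeR). Of the tissue factor list, 3 of 5 genes were tested, all of them described above. In the list of coagulation inhibitors, 10 of 15 genes were tested, 8 had a log2 fold change below 0, and the median of -0.58 became 0.08 without wildtype replicate 2. The lowest was *Thbd* and the highest *Entpd1*, which encodes an ectonucleotidase that degrades ADP (0.55, adjusted p = 0.778, and 0.088 without wildtype replicate 2). The genotypes did not overlap for *Thbd* and *Anxa5*, the latter named here after its values were seen, with a log2 fold change of -0.92 (adjusted p = 0.470) that was -0.27 without wildtype replicate 2.

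In the list of fibrinolysis inhibitors, which holds *Thbd* because its complex with thrombin also activates an inhibitor of clot breakdown, 6 of 8 genes were tested, and the median log2 fold change of -0.56 became 0.40 without wildtype replicate 2. *Serpine2*, an inhibitor of thrombin and of both plasminogen activators, had the highest fold change of the list. It had 6286, 5877 and 8248 normalised counts in the knockout and 3040, 11075 and 3105 in the wildtype cultures, so that the knockout cultures lay above 2 wildtype cultures and below replicate 2. Its log2 fold change was 0.25 (adjusted p = 0.899) with all cultures and 1.14 (adjusted p = 0.0379) without wildtype replicate 2. The vitamin K-dependent protein *Gas6* had the same split, with a log2 fold change of 0.14 (adjusted p = 0.942) and of 0.97 without wildtype replicate 2 (adjusted p = 0.0311), and is named here after its values were seen.

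Of the genes of plasminogen activation, 7 of 9 were tested. *S100a10*, a partner of annexin A2 that binds plasminogen activator, had the lowest fold change of those with at least 100 normalised counts. It had 8100, 7946 and 6411 normalised counts in the knockout and 9548, 11236 and 9780 in the wildtype cultures without overlap (log2 fold change -0.44, SE 0.15, adjusted p = 0.331 from edgeR). *Lrp1*, the receptor that clears activators bound to their inhibitors, had the highest, 0.71 (SE 0.26, adjusted p = 0.363), also without overlap. Among 20 coagulation factors, 8 were tested with a median of 0.06. Of those with a mean of at least 100 normalised counts, the extremes were *F13a1*, the clot-stabilising factor XIII subunit (1.25, adjusted p = 0.791, and 0.67 without wildtype replicate 2), and *Vkorc1* of the vitamin K cycle (-0.20, adjusted p = 0.612). At lower counts, *F11* had 1.62 (adjusted p = 0.565) and *Klkb1* -0.49 (adjusted p = 0.773), both named after their values were seen.

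**Figure D4:**
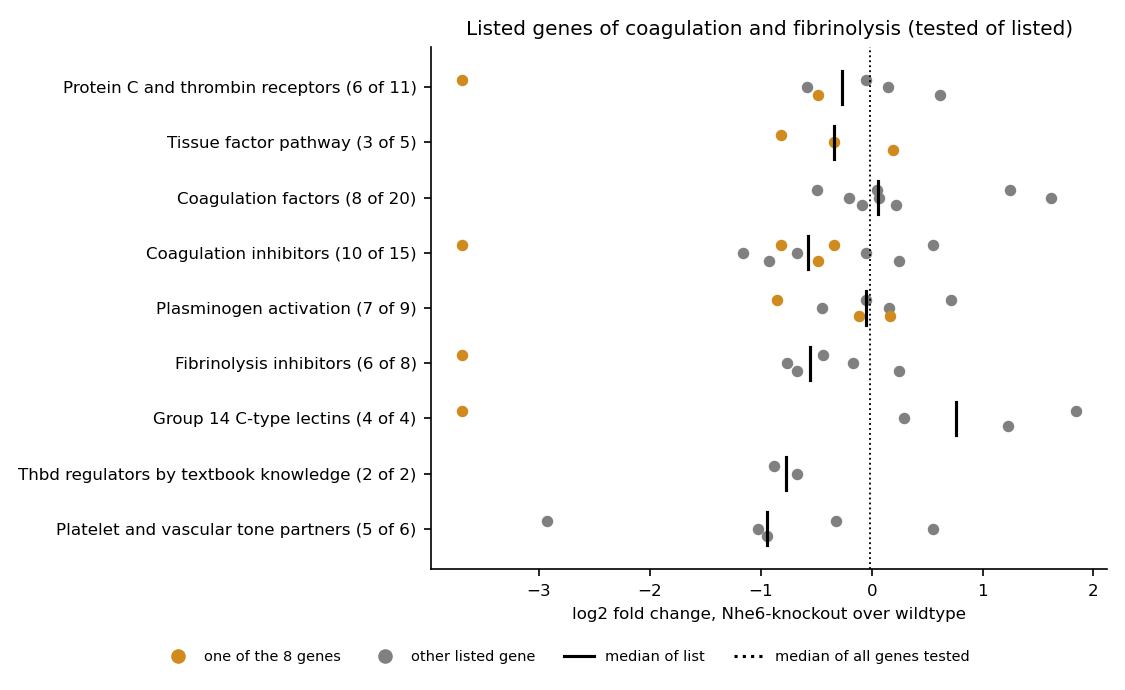
Log2 fold changes (*Nhe6*-knockout over wildtype) of the tested genes in each list, with the number tested of the number listed. Bars mark the median of each list and the dotted line the median of all genes tested, -0.02, and *Thbd* is the lowest point in each list that holds it.

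*Thbd* belongs to a small family of C-type lectin receptors with *Cd93*, *Clec14a* and *Cd248*, and all 4 were tested. *Cd93* is a neighbour of *Thbd* on chromosome 2, 28452 bases away, and on the same strand. It had 61.6, 82.7 and 24.6 normalised counts in the knockout and 46.0, 3.10 and 22.5 in the wildtype cultures (log2 fold change 1.23, SE 0.89, adjusted p = 0.658 from edgeR). The 2 neighbours thus had opposite extremes in wildtype replicate 2, the highest for *Thbd* and the lowest for *Cd93*. *Clec14a*, an endothelial receptor, had 449, 413 and 744 normalised counts in the knockout and 163, 87.7 and 196 in the wildtype cultures. Each knockout culture was above each wildtype culture, with a log2 fold change of 1.85 (SE 0.38, adjusted p = 0.123 in edgeR and 3.67e-04 in DESeq2). *Cd248*, a receptor of stromal cells, had a log2 fold change of 0.29 (adjusted p = 0.504).

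*Klf2* and *Klf4* encode transcription factors known to raise *Thbd* in endothelial cells. *Klf2* had 78.6, 102 and 112 normalised counts in the knockout and 202, 252 and 84.5 in the wildtype cultures. Wildtype replicate 3, the wildtype culture with the least *Thbd*, was within the knockout range of *Klf2*. Among the knockout cultures, replicate 3 had the most *Klf2* and the least *Thbd*. The log2 fold change of *Klf2* was -0.88 (SE 0.43, adjusted p = 0.486 from edgeR). *Klf4* had 1679, 1594 and 1182 normalised counts in the knockout and 1297, 4552 and 1263 in the wildtype cultures, with a log2 fold change of -0.67 (SE 0.53, adjusted p = 0.682) that was 0.21 without wildtype replicate 2. The part of *Klf2* and *Klf4* in the level of *Thbd* was not tested. Among genes of platelet control and vascular tone, 5 of 6 were tested, with extremes at *Entpd1* and at *Ptgis*, which encodes prostacyclin synthase (-2.93, SE 0.72, adjusted p = 0.181). *Ptgis* passed in DESeq2 (adjusted p = 3.25e-04) and, at -1.75, in edgeR without wildtype replicate 2 (adjusted p = 0.0355). *Nos3*, the endothelial nitric oxide synthase gene, was not tested and had at most 10.3 normalised counts.

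The profile of *Thbd* over the 6 cultures was compared with those of all other tested genes, as the root mean square difference of log2 counts centred on each gene's own mean. The 5 closest genes were *Mlph* (0.52), *Batf* (0.59), *Ptgis* (0.63), *Esam* (0.68) and *Slc22a8* (0.68), against a median of 1.99 over 13478 genes. In each of these 5 genes wildtype replicate 2 was highest and wildtype replicate 1 second, and only *Ptgis* had a mean above 100 normalised counts. *Ptgis* had 203, 177 and 147 normalised counts in the knockout and 732, 2842 and 444 in the wildtype cultures. With all cultures, the adjusted p of the 5 in edgeR's test lay between 0.181 and 0.386.

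**Figure D5:**
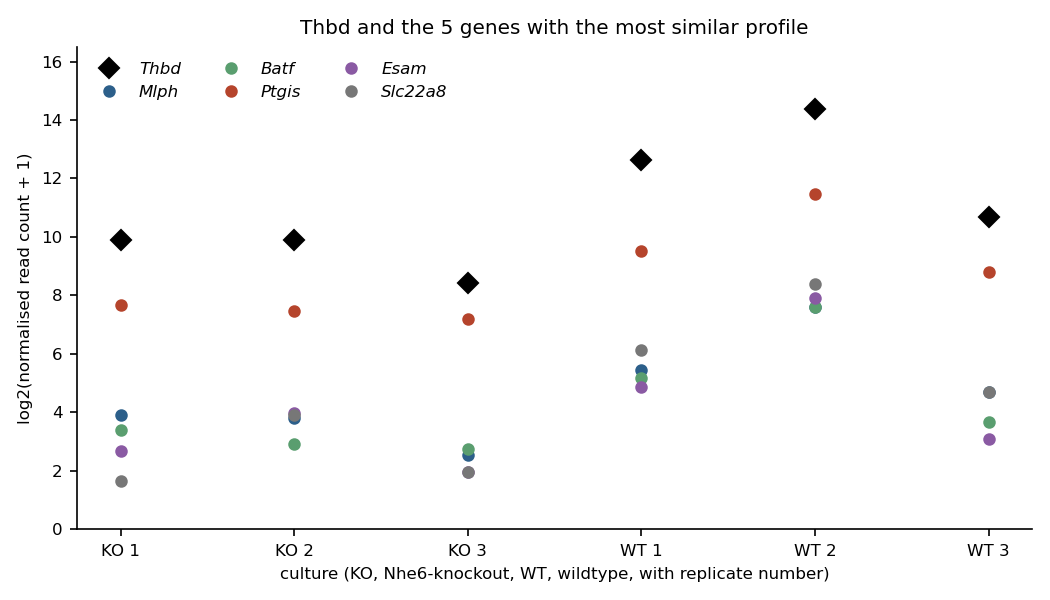
Log2(normalised read count + 1) of *Thbd* (diamonds) and of the 5 genes with the most similar profile in each culture (KO, *Nhe6*-knockout, and WT, wildtype). All 6 genes are highest in wildtype replicate 2, and *Ptgis* is the most abundant of the 5.

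Markers of other cells also differed in wildtype replicate 2, the culture with the most *Thbd*. All 8 macrophage markers were lowest there, with a sum of 5.24 CPM against 49.1 to 119 in the other 5 cultures. The epithelial markers, 4 of 5 tested, summed to 0.112 against 2.06 to 39.5, with *Krt8* and *Krt18* at 0 and *Krt14* at 0 reads in each library. Of the 5 mesothelial markers, 2 were tested, and the sum was 32.9 against 0.515 to 4.52 elsewhere. The 2 tested, *Msln* and *Krt19*, had 822 and 83.6 normalised counts there. Of the others, *Wt1* had 0 there, *Upk3b* had 1.03 there and 5.68 in *Nhe6*-knockout replicate 3, and *Lrrn4* had 0 reads in each library.

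The endothelial, mural and fibroblast markers did not move together in that culture. Of 14 endothelial markers, 7 were highest there, among them *Cdh5* at 5200 and *Cd34* at 4867 normalised counts, and 4 were lowest, among them *Emcn* at 410 and *Eng* at 867. Their sum was 580 CPM there against 613 to 941 elsewhere. Of 9 mural markers, 2 were highest there, among them *Acta2* at 16275 normalised counts against at most 1204 elsewhere, and 4 were lowest, among them *Pdgfrb* at 7793. Of 8 fibroblast markers, 4 were highest, among them *Col1a1* at 27187 against at most 1228, and 4 were lowest, among them *Dcn* at 1863 and *Lum* at 1156. The mural sum was 1085 CPM against 588 to 853 and the fibroblast sum 13970 against 9112 to 9996. Melanocyte markers (2 of 6 tested) summed to 10.4 there against 14.2 to 40.6, and glial markers (3 of 4 tested) to 24.1 against 14.5 to 29.0. The part of these cell types in the level of *Thbd* was not tested.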

How the data were processed

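RNA-seq covered 6 cultures, 3 per genotype, each with 1 stranded poly(A)-enriched library. The authors deposited raw read counts per gene symbol without normalisation, on mm10. Per the submitters' processing notes, STAR 2.7.7a, HTSeq 0.13.5 and DESeq2 1.26.0 were used. The annotation and strand setting are not given in the sources used here. The 5 closing lines of reads outside genes held 22.2% of reads and were left out.

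Genes were filtered with filterByExpr (minimum count 10), scaled by TMM and tested by genotype alone over all 6 libraries with edgeR 4.0.16 in R 4.3.3 (quasi-likelihood, two-sided, Benjamini-Hochberg over 13479 genes, threshold 0.05). A standard error is the log2 fold change over the square root of F. Normalised counts are scaled to the mean library. Exon lengths and positions are from GENCODE M21. Ratios used a pseudocount of 0.5 and exact permutation tests, adjusted over 6 ratios, of which 4 are given. Results of some genes are not reported here. The fits were tested on simulated data with the same dispersion in each gene and no outlying or closely similar cultures. The simulation therefore does not show how the fits perform on cultures such as these. Alternatives were DESeq2 size factors, no filter beyond 1 count, DESeq2 1.42.0 and limma-voom 3.58.1, the replicate number as a block, each culture left out, and *Nhe6*-knockout replicates 1 and 2 summed.

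The members and lists were chosen with earlier results of these data known. All 8 members are named, and from each list the genes past the threshold and those with the highest and lowest fold change at a mean of at least 100 normalised counts, besides *Klf2*, *Klf4* and *Cd93* and the 5 genes closest to *Thbd*. Replicates are cultures as the labels number them. Whether *Nhe6*-knockout replicates 1 and 2 are independent is not known, and if they are not, n is smaller and the p-values printed are too small. The smallest p for 3 against 3 is 0.1.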

Additional observations from a re-analysis of the deposited data

How the results depend on the processing

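Leaving out 1 culture of 6 gave 0 to 395 genes past the threshold in place of 9, with 395 without wildtype replicate 2 and 0 (1371 at an unadjusted p under 0.05 in edgeR) without *Nhe6*-knockout replicate 3. The number was 21 without a filter beyond 1 count, 627 with DESeq2, 2 with the replicate number as a block and 1 with *Nhe6*-knockout replicates 1 and 2 summed, an alternative chosen after seeing the data. Of the 8 genes, DESeq2 called 1, *Thbd*, and the other 11 alternatives 0. *Thbd* kept its direction in all 12, between -4.20 and -2.42, and its adjusted p, 1.41e-04 with DESeq2 (log2 fold change -3.70), was 0.114 to 0.656 in the others. *F3* and *Tfpi* also kept their direction in all 12.

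With each culture left out, the log2 fold change ran from -0.75 to 0.068 for *Procr*, -1.35 to 1.42 for *Tfpi2*, -0.14 to 0.50 for *Plat*, -0.39 to 0.30 for *Plau* and -1.23 to 0.19 for *Plaur*. *Tfpi2* was at 0.23 with limma-voom and 0.24 with the replicate block, and *Plat* at -0.043 with the summed replicates. The difference in log2 ratio ran from -0.49 to 1.11 for *Plau*/*Plaur*. The cause was not tested. Whether the replicate numbers pair the cultures is not known. Correlations of deviations between cultures of the same number were 0.198, -0.204 and 0.0937. They cannot decide it, since deviations from a mean of 3 cultures are tied to each other and wildtype replicate 2 stood apart. With the replicate number as a block, the SE went from 0.97 to 0.51 for *Thbd* and from 0.49 to 0.51 for *Plat*. Depth limits *Plaur*, with at most 84 reads in a library.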
